A study of Homo sapiens with 6 samples.

Results

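The HOX cluster genes are the homeobox genes whose symbol is HOXA, HOXB, HOXC or HOXD followed by digits alone. Selected by symbol, they numbered 38 of the 20729 genes in the table: 11 HOXA genes, 10 HOXB genes, 9 HOXC genes and 8 HOXD genes. HOXD12 was not analysed here. Expression was measured by RNA-seq in SW620, an established human colorectal cancer line. The 3 siOSBPL3 libraries came from cells given an siRNA against OSBPL3, which encodes a lipid-binding protein of the oxysterol-binding family. The 3 siNC libraries came from cells given a control siRNA. No other agent or allele is named for either group, and the siRNA sequence, its dose and the time of harvest are not stated in the labels. Nor are separate cultures, and p-values here therefore rest on a spread between libraries that may be technical.

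HOX proteins are transcription factors that bind DNA through a homeodomain and give cells their position along the body axis. Their genes stand in 4 clusters in the order in which they act from head to tail, and genes at the same place in different clusters share a paralogue number, here from 1 to 13. The gut keeps a regional HOX pattern in adult life, and the caudal homeobox factors CDX1 and CDX2, which mark intestinal epithelium, bind HOX loci during development. HOX proteins bind DNA together with PBX and MEIS cofactors, while Trithorax and Polycomb chromatin complexes keep the clusters active or silent.

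On GRCh38.p14 the stretch from HOXA2 to HOXA13 lay on chromosome 7 from 27100354 to 27200091, on the minus strand, and the HOXB members on chromosome 17 from 48528526 to 48728750, also on the minus strand. The HOXC members lay on chromosome 12 from 53938831 to 54056030 and the HOXD members on chromosome 2 from 176087487 to 176190907, both on the plus strand. The RefSeq promoter table of the same build held 19 of the 38 genes, with 26 windows. The 250 bases before the start are printed for 4 members that stood among the largest differences of the HOXA and HOXD clusters. A link between these windows and the CDX2 values given further on was not tested. Capitals mark TTTATG and TTTATT, hexamers of the kind that CDX factors bind, and CCAAT, a general promoter box, each searched on both strands, so that a run in capitals may be the reverse complement of these letters. HOXA7 (chr7:27156676-27156925, minus strand), HOXA9 (chr7:27165538-27165787, minus strand), HOXD4 (chr2:176151300-176151549, plus strand) and HOXD8 (chr2:176129455-176129704, plus strand) read as follows, from 5′ to 3′.
HOXA7: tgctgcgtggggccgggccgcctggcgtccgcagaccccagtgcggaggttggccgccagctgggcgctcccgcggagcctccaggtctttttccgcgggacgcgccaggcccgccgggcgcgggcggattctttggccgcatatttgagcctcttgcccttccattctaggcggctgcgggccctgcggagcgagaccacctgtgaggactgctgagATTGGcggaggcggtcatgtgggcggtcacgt
HOXA9: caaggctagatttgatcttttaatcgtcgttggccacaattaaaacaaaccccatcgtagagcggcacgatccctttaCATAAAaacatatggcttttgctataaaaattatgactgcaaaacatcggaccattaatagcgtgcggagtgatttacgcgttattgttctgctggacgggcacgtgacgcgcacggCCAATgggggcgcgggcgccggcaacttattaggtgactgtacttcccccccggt
HOXD4: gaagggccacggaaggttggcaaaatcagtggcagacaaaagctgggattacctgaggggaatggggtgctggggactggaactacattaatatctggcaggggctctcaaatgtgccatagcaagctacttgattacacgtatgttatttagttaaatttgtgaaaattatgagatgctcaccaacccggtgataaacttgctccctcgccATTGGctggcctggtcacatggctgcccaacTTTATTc
HOXD8: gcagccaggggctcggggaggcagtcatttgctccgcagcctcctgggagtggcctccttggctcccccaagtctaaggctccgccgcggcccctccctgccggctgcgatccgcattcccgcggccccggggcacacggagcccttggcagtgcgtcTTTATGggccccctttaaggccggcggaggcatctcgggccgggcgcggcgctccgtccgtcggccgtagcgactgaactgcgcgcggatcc

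TTTATG stood in the printed windows of HOXA9, which was lower in siOSBPL3, and of HOXD8, which was higher. TTTATT stood in that of HOXD4, while the HOXA7 window held neither hexamer and 1 CCAAT box. Of the 26 HOX windows 3 held TTTATG, against 9.6% of the 35116 promoters of that length, 8 held TTTATT, against 16.0%, and 17 held CCAAT, against 32.0%. Several windows belong to the same gene, as with HOXA3, which held several of the TTTATT windows. HOXC4 and HOXC5 share 1 window, which holds TTTATT and CCAAT. Of the HOXB genes only HOXB1 had a window, and HOXC10 and HOXC13 had none. A match describes letters in a window and is not a shown binding site.

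The libraries held from 34569895 to 39701340 counts in siOSBPL3 and from 30040020 to 33667128 in siNC, which puts the floor for genes at 0, 3 counts summed over a group, at 0.0267 CPM in siOSBPL3 and 0.0313 CPM in siNC (CPM is the count normalised to TMM-scaled library size, and floors and intervals cover counting error only). OSBPL3 itself had 40.2, 12.2 and 15.1 CPM in siOSBPL3 and 179, 174 and 175 CPM in siNC, a log2 difference of -2.97 ± 0.48 (SE, as for later ± values of log2 differences; adjusted p = 0.0016, edgeR's quasi-likelihood test). Pearson's r of log2(CPM + 0.5) over the HOX genes ran from 0.985 to 0.994 among siOSBPL3 libraries, from 0.992 to 0.996 among siNC libraries and from 0.712 to 0.749 between the groups, across genes, which are not independent replicates. Over all tested genes r between the groups ran from 0.802 to 0.809, so the groups differed widely beyond the HOX genes. Of the markers of colorectal epithelium 12 were analysed, with a summed level of 4182 to 5224 CPM in siOSBPL3 and 6416 to 6481 CPM in siNC; KRT8 and EPCAM were abundant, while KRT20 had 4 counts in siOSBPL3 and 20 in siNC and CDX1 had 6 and 0. The 6 leukocyte markers summed to 11.6 to 17.4 CPM in siOSBPL3 and 20.4 to 22.9 CPM in siNC, with PTPRC at 12 counts in siOSBPL3 and 8 in siNC and CD3E at 6 and 4. The other 4 leukocyte markers went both ways: CD8A (505 counts in siOSBPL3 and 62 in siNC) and CD14 (346 and 27) were higher, while CD68 (654 and 1819) and LYZ (20 and 184) were lower. The 5 fibroblast markers summed to 3.18 to 5.95 CPM in siOSBPL3 and 69.9 to 74.3 CPM in siNC. LUM had 0 counts in siOSBPL3 and 5785 in siNC, a mean of 60.3 CPM in siNC, and COL1A1 had 497 counts in siOSBPL3 and 1018 in siNC, while COL3A1 had 1 and 0 and DCN 1 and 5. The 2 endothelial markers summed to 0.22 to 0.80 CPM in siOSBPL3 and 1.39 to 2.25 CPM in siNC. The part of these marker differences in the HOX results was not tested, and a difference between the groups other than the siRNA, the cells themselves included, cannot be told apart from the knockdown. In bulk RNA, fewer cells of a type and less RNA per cell cannot be told apart.

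The direction of the HOX differences varied between clusters. Most HOXB genes and all 3 tested HOXD genes were higher in siOSBPL3 (HOXD9 with the opposite sign under a per-library correction for GC content and length), while most HOXC and HOXA genes were lower, several of them by more than 20-fold. Of the 38 members 32 passed the filter on low counts and were tested with edgeR's quasi-likelihood test, with p-values adjusted by Benjamini-Hochberg across all 15506 tested genes. At an adjusted p under 0.05, 25 of the 32 were called, or 78.1%, against 80.2% of all genes tested, so HOX genes were called about as often as other genes. Of these 11 were higher, against 40.4% of all genes, and 14 were lower, against 39.8%; with that correction the split was 8 higher and 18 lower. At least 2-fold differences were called in 15 HOX genes, 5 of them higher and 10 lower, against 48.9% of all genes. The CPM ranges of the groups did not overlap in 25 of the 32, against 83.0% of all genes. The median log2 fold change was -0.27 over the 32 tested HOX genes and -0.00089 over all genes tested.

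The HOXB cluster carried most HOX RNA in both groups and more of it in siOSBPL3. Its 10 genes summed to 758, 620 and 626 CPM in siOSBPL3 and to 297, 294 and 297 CPM in siNC, a ratio of 2.26. Of the 9 tested genes 7 were higher, 1 was lower and 1 was not called. HOXB9, a paralogue of group 9 that shapes the thoracic skeleton in mice, had 205, 172 and 150 CPM in siOSBPL3 and 46.7, 50.1 and 48.7 CPM in siNC. Every siOSBPL3 library thus lay above every siNC library, and the difference was 3.62-fold (log2 1.86 ± 0.11, adjusted p = 1.45e-08). HOXB7, a trunk gene studied as an oncogene in epithelial cancers, had 91.3, 83.7 and 98.0 CPM in siOSBPL3 and 31.0, 24.99 and 27.9 CPM in siNC. Its groups did not overlap either, at a log2 fold change of 1.70 ± 0.10 (adjusted p = 1.43e-08). HOXB13, the most posterior gene of the cluster and a factor of prostate and distal gut, had 8.88, 5.96 and 5.05 CPM in siOSBPL3 and 1.25, 0.994 and 1.18 CPM in siNC. Though much less abundant, it showed the largest rise in the cluster, 5.80-fold (log2 2.54 ± 0.27, adjusted p = 3.07e-06). None of these 3 genes shares an exon with another annotated gene in GENCODE 29.

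HOXB3, HOXB5, HOXB6 and HOXB8 rose less. HOXB6 had 164, 123 and 126 CPM in siOSBPL3 and 75.5, 73.9 and 73.6 CPM in siNC (log2 0.89 ± 0.11, adjusted p = 9.69e-06). HOXB3 had 103, 95.3 and 101 CPM in siOSBPL3 and 56.0, 53.0 and 55.7 CPM in siNC (log2 0.86 ± 0.08, adjusted p = 5.86e-07). Neither gene overlapped between groups, and the first library of siOSBPL3 stood highest for both. HOXB8, a regulator of myeloid progenitors in mice, had 79.2, 61.8 and 65.1 CPM in siOSBPL3 and 33.4, 36.9 and 34.5 CPM in siNC (log2 0.97 ± 0.10, adjusted p = 2.79e-06). HOXB5, which acts in the enteric nervous system, had 58.5, 51.5 and 55.8 CPM in siOSBPL3 and 28.0, 27.8 and 28.6 CPM in siNC (log2 0.97 ± 0.09, adjusted p = 5.78e-07). Both therefore stood at about the same fold difference. With the correction for GC content and length HOXB8 was not called (log2 0.19, adjusted p = 0.0769) and the difference of HOXB6 was 0.25 (adjusted p = 0.0362). The other HOXB rises were smaller too but still called, at 0.42 for HOXB5, 0.69 for HOXB3, 1.25 for HOXB7, 1.31 for HOXB9 and 1.96 for HOXB13. Sums and shares of the clusters carry no such correction. HOXB4, known for expanding blood stem cells, had 46.0, 23.9 and 21.6 CPM in siOSBPL3 and 21.5, 21.1 and 22.1 CPM in siNC. Its first siOSBPL3 library stood apart from the others, the groups overlapped, and it was not called (log2 0.50 ± 0.25, adjusted p = 0.0927); without that library the log2 difference was 0.08 (adjusted p = 0.44).

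HOXB2, a hindbrain gene, was the only tested HOXB gene called lower, at 1.94, 2.08 and 2.88 CPM in siOSBPL3 and 3.77, 5.48 and 4.25 CPM in siNC (log2 -0.97 ± 0.25, adjusted p = 0.00397). HOXB1, another hindbrain gene, had 4, 0 and 0 counts in siOSBPL3 and 4, 0 and 0 in siNC and was not tested. The rise of the HOXB genes was thus not shared by HOXB2.

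**Figure D1:**
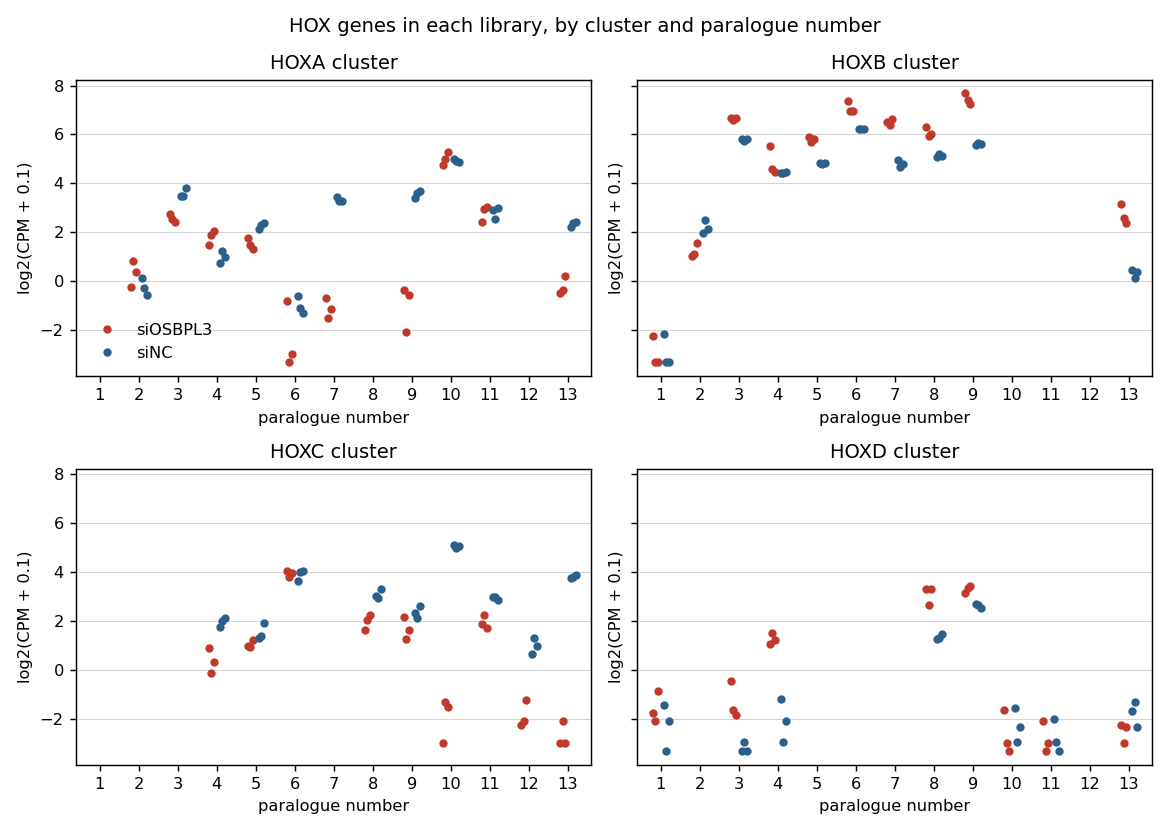
Level of HOX genes in each library as log2(CPM + 0.1), by cluster (panels) and paralogue number, with siOSBPL3 points (red) left of siNC points (blue). All siOSBPL3 points of HOXB7, HOXB9 and HOXB13 lie above the siNC points, and HOXC10 and HOXC13 show the widest gaps, with siOSBPL3 at the bottom of the panel.

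The HOXC cluster moved the other way. Its 9 genes summed to 31.2, 28.1 and 30.5 CPM in siOSBPL3 and to 88.5, 90.2 and 98.0 CPM in siNC, which is 3.08-fold lower in siOSBPL3. All 9 were tested: 7 were lower, 0 were higher and 2 were not called. HOXC10, a gene of the lumbar region that also acts in adipose tissue, had 0.0277, 0.301 and 0.253 CPM in siOSBPL3 and 34.8, 31.9 and 33.9 CPM in siNC. These are 1, 11 and 10 counts in siOSBPL3 and 1142, 1058 and 1006 counts in siNC. The most abundant HOXC gene of the siNC libraries was thus far lower in siOSBPL3, by 168-fold (log2 -7.39 ± 0.28, adjusted p = 2.62e-10). HOXC13, which controls hair and nail keratins, had 1, 5 and 1 counts in siOSBPL3 and 445, 461 and 438 counts in siNC. The summed counts, scaled for depth, were 225-fold lower in siOSBPL3 (95% counting interval 109 to 561), and the fitted log2 fold change was -7.74 ± 0.33 (adjusted p = 8.1e-10); it was -8.87 without the second siOSBPL3 library. HOXC12 had 0.111, 0.137 and 0.329 CPM in siOSBPL3 and 1.46, 2.38 and 1.89 CPM in siNC (log2 -3.27 ± 0.49, adjusted p = 5.41e-05), and -3.90 without the third siOSBPL3 library. It was low in both groups, yet the groups did not overlap.

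The other HOXC genes differed less. HOXC4 (log2 -1.63 ± 0.31), HOXC8 (-1.11 ± 0.20) and HOXC11 (-0.998 ± 0.19) were lower, with adjusted p from 0.000277 to 0.000459. HOXC9 had 4.35, 2.30 and 3.01 CPM in siOSBPL3 and 4.90, 4.28 and 6.03 CPM in siNC. Its groups overlapped, and its call (log2 -0.66 ± 0.26, adjusted p = 0.0355) was lost with library totals as the scale and without siNC 1, siNC 3, siOSBPL3 2 or siOSBPL3 3, with adjusted p from 0.0587 to 0.156. HOXC6 had 16.5, 13.9 and 15.7 CPM in siOSBPL3 and 12.4, 16.0 and 16.6 CPM in siNC, with overlapping groups and no call (log2 0.04 ± 0.14, adjusted p = 0.822). HOXC5 had 1.85, 1.83 and 2.22 CPM in siOSBPL3 and 2.34, 2.50 and 3.67 CPM in siNC and was not called (log2 -0.52 ± 0.28, adjusted p = 0.103), though its groups did not overlap; with the GC and length correction it was -1.29 (adjusted p = 0.00138). HOXC4, HOXC5 and HOXC6 share exons, so their counts are not independent measurements.

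The HOXA cluster summed to 50.2, 55.6 and 63.3 CPM in siOSBPL3 and to 90.2, 88.5 and 93.2 CPM in siNC. All 11 genes were tested, with 1 higher, 6 lower and 4 not called. The largest falls were in HOXA7 and HOXA9, which stand next to each other. HOXA9, a regulator of blood stem cells that drives many leukaemias, had 0.664, 0.137 and 0.581 CPM in siOSBPL3 and 10.3, 12.1 and 12.8 CPM in siNC. HOXA7 had 0.526, 0.246 and 0.354 CPM in siOSBPL3 and 10.7, 9.61 and 9.50 CPM in siNC. Every siOSBPL3 library was under 1 CPM for both, at 25.2-fold lower for HOXA9 (log2 -4.66 ± 0.34, adjusted p = 9.1e-08) and 26.3-fold lower for HOXA7 (log2 -4.72 ± 0.27, adjusted p = 8.66e-09). Of the exon bases of HOXA7, 62.5% lie opposite the antisense gene HOXA-AS3, which was higher in siOSBPL3 (log2 1.95 ± 0.49, adjusted p = 0.0029), so part of the HOXA7 counts cannot be told apart from it. The readthrough entry HOXA10-HOXA9, which is not a member, was also lower (log2 -2.82 ± 0.49, adjusted p = 0.000185). HOXA13, which patterns the hindgut and the hand, had 0.609, 0.683 and 1.06 CPM in siOSBPL3 and 4.53, 5.09 and 5.26 CPM in siNC. That was 6.27-fold lower in siOSBPL3 (log2 -2.65 ± 0.29, adjusted p = 3.04e-06), with no overlap.

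HOXA10 and HOXA11, which lie between HOXA9 and HOXA13 and act in uterus and limb, did not pass the test. HOXA10, the most abundant HOXA gene, had 26.5, 31.3 and 38.7 CPM in siOSBPL3 and 31.7, 30.1 and 29.3 CPM in siNC (log2 0.09 ± 0.13, adjusted p = 0.551). HOXA11 had 5.26, 7.52 and 8.06 CPM in siOSBPL3 and 7.49, 5.66 and 7.92 CPM in siNC (log2 -0.01 ± 0.20, adjusted p = 0.954). The groups overlapped for both, so the falls of HOXA7, HOXA9 and HOXA13 did not extend in these values to every gene of the posterior HOXA stretch. With the GC and length correction HOXA10 was lower (log2 -0.40, adjusted p = 0.0177), and so was HOXA11 (log2 -0.57). Antisense genes lie opposite 16.4% of the exon bases of HOXA10 (HOXA10-AS) and 31.1% of those of HOXA11 (HOXA11-AS).

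Toward the anterior end, HOXA3, required for thymus and parathyroid in mice, had 6.64, 5.77 and 5.18 CPM in siOSBPL3 and 11.2, 11.2 and 13.9 CPM in siNC. It was lower without overlap at a log2 of -1.04 ± 0.16 (adjusted p = 7.03e-05), and so was HOXA5, a lung gene in mice, at -0.77 ± 0.22 (adjusted p = 0.00669). Between them HOXA4 was the only HOXA gene called higher, at 2.68, 3.64 and 3.99 CPM in siOSBPL3 and 1.55, 2.23 and 1.89 CPM in siNC (log2 0.86 ± 0.27, adjusted p = 0.011). That call was lost without siNC 1 (adjusted p = 0.0549) and with the GC and length correction (log2 0.11, adjusted p = 0.728). HOXA4 shares 31.0% of its exon bases with a same-strand gene and 16.3% with the antisense genes HOXA-AS2 and HOXA-AS3. HOXA-AS3 also lies opposite 39.3% of the exon bases of HOXA6. Reads of these genes may be split or shared there. HOXA2, at 0.747, 1.64 and 1.19 CPM in siOSBPL3 and 1.00, 0.723 and 0.573 CPM in siNC, was not called (log2 0.63 ± 0.42, adjusted p = 0.186). HOXA6, at 0.471, 0 and 0.0253 CPM in siOSBPL3 and 0.548, 0.361 and 0.303 CPM in siNC, was not called either (log2 -1.30 ± 0.92, adjusted p = 0.211), but was at -4.61 (adjusted p = 0.00114) without siOSBPL3 1.

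The HOXD cluster was the least abundant in both groups and the one with fewest genes tested, 3 of 8. All 3 were higher in siOSBPL3, though HOXD9 changed sign with the GC and length correction. HOXD8, of the central HOXD stretch, had 9.85, 6.23 and 9.78 CPM in siOSBPL3 and 2.28, 2.35 and 2.70 CPM in siNC (3.53-fold; log2 1.82 ± 0.22, adjusted p = 9.43e-06; 1.013 with the GC and length correction). HOXD4 had 1.97, 2.73 and 2.22 CPM in siOSBPL3 and 0.335, 0.0301 and 0.135 CPM in siNC (13.5-fold; log2 3.76 ± 0.55, adjusted p = 4.61e-05; 4.79 without siNC 1 and 2.94 with that correction). The groups were apart for both genes, and HOXD4 was close to absent in the siNC libraries. HOXD9 had 8.75, 10.1 and 10.6 CPM in siOSBPL3 and 6.39, 6.14 and 5.70 CPM in siNC (log2 0.69 ± 0.15, adjusted p = 0.00116), but -0.34 with that correction (adjusted p = 0.065), so its direction depended on it.

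The other HOXD genes had few counts and were not tested. HOXD3 had 23, 8 and 7 counts in siOSBPL3 and 0, 1 and 0 counts in siNC, a ratio of 32.4 scaled for depth (95% counting interval 5.47 to 1313). HOXD1 had 7, 5 and 18 counts in siOSBPL3 and 9, 0 and 4 in siNC. HOXD13, the digit gene, had 4, 1 and 4 counts in siOSBPL3 and 7, 10 and 3 in siNC. Scaled for depth, HOXD13 was 2.61-fold lower in siOSBPL3 (95% counting interval 1.13 to 6.50), with overlapping groups. Of these only HOXD3, the neighbour of HOXD4, showed no overlap between groups. It shares 62.2% of its exon bases with a same-strand transcript that also covers 80.5% of HOXD4. HOXD3 also shares 14.6% of its exon bases with opposite-strand genes, HAGLR and HOXD-AS2 among them. HOXD1 shares 58.1% with opposite-strand genes that include HAGLR. Both antisense RNAs, given further on, were higher in siOSBPL3, and reads cannot be told apart there without the strand setting. HOXD10 had 8, 1 and 0 counts in siOSBPL3 and 8, 1 and 3 in siNC, and HOXD11 had 5, 0 and 1 counts in siOSBPL3 and 5, 1 and 0 in siNC, so differences in these genes were not detectable at this depth.

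Genes of 1 paralogue group, whose proteins are most alike, often differed in direction between clusters. In group 13, HOXB13 was higher while HOXA13 and HOXC13 were lower. In group 9, HOXB9 and HOXD9 were higher while HOXA9 and HOXC9 were lower, though HOXD9 changed sign with the GC and length correction, and in group 7 HOXB7 was higher and HOXA7 lower. In group 8, HOXB8 and HOXD8 were higher and HOXC8 lower. In group 4, HOXB4 was not called, HOXA4 and HOXD4 were higher and HOXC4 lower, and in groups 3 and 5 HOXB3 and HOXB5 were higher and HOXA3 and HOXA5 lower. Groups 2, 10, 11 and 12 held only falls among their calls (HOXB2, HOXC10, HOXC11 and HOXC12), and group 6 only a rise (HOXB6). Summed over the 4 clusters, group 9 stood at 164 to 218 CPM in siOSBPL3 and 68.3 to 73.2 CPM in siNC, and group 13 at 6.24 to 9.63 CPM in siOSBPL3 and 19.5 to 21.3 CPM in siNC. The sum of group 13 fell although its HOXB gene rose, since HOXC13 and HOXA13 supplied most of it in siNC.

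All 38 HOX genes together summed to 861, 723 and 743 CPM in siOSBPL3 and to 486, 482 and 497 CPM in siNC. On counts per kilobase of exon, which allow genes of different length to be compared, the HOXB cluster held from 85.3% to 88.5% of HOX RNA in siOSBPL3 libraries and from 59.6% to 61.3% in siNC libraries. The HOXC share was 3.45% to 3.90% in siOSBPL3 and 19.8% to 21.6% in siNC, and the HOXA share 4.96% to 6.96% in siOSBPL3 and 16.2% to 16.5% in siNC. The HOXD share was 3.03% to 3.82% in siOSBPL3 and 2.30% to 2.67% in siNC. No library of one group came within the range of the other for any of the 4 shares, which are parts of a whole and so not independent of each other.

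**Figure D2:**
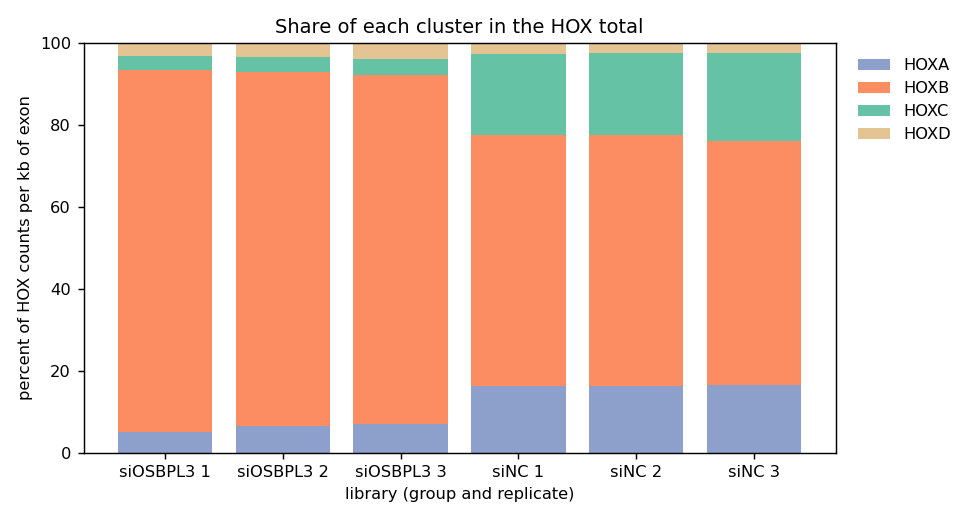
Share of each HOX cluster in the HOX counts per kilobase of exon, in percent, for the siOSBPL3 libraries and then the siNC libraries. HOXB takes at least 85.3% in each siOSBPL3 library and at most 61.3% in each siNC library.

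Ranked by level per kilobase, HOXB9 led in siOSBPL3 with a mean of 68.1 CPM per kb, followed by HOXB7 at 59.6, HOXB6 at 52.9, HOXB8 at 33.5 and HOXB5 at 27.1 CPM per kb. The ranges of HOXB9, HOXB7 and HOXB6 over the siOSBPL3 libraries overlapped, so their order is not settled, while HOXB8 and HOXB5 lay below them without overlap with each other. In siNC, HOXB6 led at 28.5 CPM per kb, followed by HOXB9 at 18.8, HOXB7 at 18.3, HOXB8 at 17.0 and HOXC10 at 14.4 CPM per kb. HOXB7 overlapped with HOXB9 and with HOXB8 in siNC, and HOXC10 with HOXB5, which had 13.8 CPM per kb. HOXC10, at rank 5 of the 38 in siNC, was at rank 32 in siOSBPL3, and HOXC13, at rank 9 in siNC, was at rank 36 in siOSBPL3. HOXD8 moved up to rank 11 in siOSBPL3, against rank 27 in siNC. At least 1 CPM was reached in every siOSBPL3 library by 23 HOX genes, in every siNC library by 28, and in all 6 libraries by 21.

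Of the long noncoding RNAs of the clusters 15 were in the counts and 11 were tested. Among those tested 6 were higher, 2 lower and 3 not called, with a median log2 fold change of 0.66. Their share called was 72.7%, against 80.2% of all genes tested. HOXB-AS3, transcribed across the HOXB5 and HOXB6 region in the opposite direction, had 32.2, 39.5 and 41.6 CPM in siOSBPL3 and 0.761, 0.753 and 0.843 CPM in siNC (log2 5.59 ± 0.17, adjusted p = 4.53e-11; 4.87 with the GC and length correction). It was thus nearly absent in siNC, and as it shares 16.3% of the exon bases of HOXB6, 5.3% of HOXB3 and 3.6% of HOXB5, reads of these genes cannot be told apart there without the strand setting. HAGLR, an antisense RNA of the HOXD cluster, rose by a log2 of 4.62 ± 0.20 (adjusted p = 9.83e-10), at 13.3 to 15.03 CPM in siOSBPL3 and 0.482 to 0.674 CPM in siNC. HOXD-AS2 had 165, 154 and 158 counts in siOSBPL3 and 0, 2 and 0 in siNC, a ratio of 203 (95% counting interval 56.0 to 1684). HOTAIR, a HOXC transcript known for binding Polycomb proteins, had 1.27, 0.875 and 0.581 CPM in siOSBPL3 and 7.64, 6.62 and 7.65 CPM in siNC (log2 -3.01 ± 0.28, adjusted p = 7.95e-07). HOXB-AS1, which shares exon bases with HOXB2 and HOXB3, was lower (log2 -3.36 ± 0.50, adjusted p = 4.9e-05; -4.20 with the GC and length correction), and HOXA10-AS was higher (log2 1.35 ± 0.20, adjusted p = 4.75e-05), a call lost with that correction (log2 0.44, adjusted p = 0.0576). HOXB-AS4 had 33 counts in siOSBPL3 and 0 in siNC, at least 9.38-fold higher against 3 counts over the siNC group.

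CDX2, the caudal factor of intestinal epithelium, had 53.4, 72.6 and 64.5 CPM in siOSBPL3 and 1.46, 1.29 and 0.708 CPM in siNC. Every siOSBPL3 library was far above every siNC library (log2 5.76 ± 0.20, adjusted p = 1.72e-10). PDX1, the ParaHox gene of pancreas and duodenum, also rose (log2 5.29 ± 0.30, adjusted p = 1.03e-08; 4.49 with the GC and length correction). CDX1 had 6 counts in siOSBPL3 and 0 in siNC and was not tested.

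Of the 9 tested genes listed from the TALE homeobox class, 5 were higher, 2 lower and 2 not called (median log2 fold change 0.53). The list held the PBX and MEIS cofactors and also PKNOX1, TGIF1 and TGIF2. The share called was 77.8%, against 80.2% of all genes tested. The MEIS genes differed among themselves. MEIS1, a partner of HOXA9 in leukaemia, had 0 counts in siOSBPL3 and 341 in siNC, at least 133-fold lower against 3 counts over the siOSBPL3 group, and MEIS2 was lower at a log2 of -2.93 ± 0.28 (adjusted p = 8.75e-07). MEIS3 was higher, at 30.1, 29.4 and 29.2 CPM in siOSBPL3 and 4.20, 4.70 and 5.02 CPM in siNC (log2 2.67 ± 0.12, adjusted p = 1.17e-09; 1.76 with the GC and length correction). PBX4 rose by a log2 of 1.60 ± 0.15 (adjusted p = 9.24e-07; 0.70 with that correction), TGIF1 by 0.53 ± 0.10 (adjusted p = 0.000355) and PBX2 by 0.56 ± 0.09 (adjusted p = 0.000123), the last not called with that correction (log2 0.12, adjusted p = 0.173).

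Of the 29 chromatin regulators of HOX genes 11 were higher, 12 lower and 6 not called (median log2 fold change -0.0045). They were called about as often as other genes, at 79.3%, against 80.2% of all genes tested. Of all genes tested 40.4% were higher and 39.8% lower. KMT2A, the Trithorax-type methyltransferase that keeps HOX genes active, had 43.0, 46.8 and 43.1 CPM in siOSBPL3 and 180, 186 and 177 CPM in siNC (log2 -2.03 ± 0.08, adjusted p = 4.57e-10), and its relative KMT2C was lower at a log2 of -1.67 ± 0.12 (adjusted p = 6.9e-08). KAT6A, an acetyltransferase, was lower at a log2 of -1.24 ± 0.09 (adjusted p = 1.13e-07). The Polycomb repressive genes PCGF2 (log2 1.77 ± 0.10, adjusted p = 7.95e-09), RING1 (1.51 ± 0.09, adjusted p = 1.89e-08) and PHC2 (1.10 ± 0.08, adjusted p = 1.05e-07) were higher. Neither side moved as a whole, as these genes, named after their values were seen, went the other way: the Polycomb genes EZH2 (log2 -1.16), JARID2 (-0.99), EZH1 (-0.59) and CBX8 (-0.45) were lower, and the Trithorax-side genes WDR5 (0.63), KMT2B (0.52) and MEN1 (0.36) higher. The calls of WDR5 and KMT2B were lost with the GC and length correction, and MEN1 changed sign (log2 -0.34, adjusted p = 0.0026). Under that correction the differences of the genes first named were smaller, at -1.28 for KMT2A, -0.81 for KMT2C, 1.14 for PCGF2, 0.51 for RING1 and 0.43 for PHC2, and all 5 were still called.

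Retinoic acid, made from vitamin A, switches on anterior HOX genes through RAR and RXR receptors. Of the 12 tested genes of this pathway 6 were higher, 5 lower and 1 not called (median 0.32). The share called was 91.7%, against 80.2% of all genes tested. CRABP2, which carries retinoic acid to the nucleus, had 622, 608 and 648 CPM in siOSBPL3 and 9.65, 9.82 and 10.3 CPM in siNC (log2 5.98 ± 0.10, adjusted p = 1.25e-12), and the receptor RXRA rose by a log2 of 1.82 ± 0.08 (adjusted p = 1.11e-09). The enzymes ALDH1A1, ALDH1A3 and RDH10, which make retinoic acid or its precursor, were lower, at log2 values of -4.78 ± 0.27 for ALDH1A1 (adjusted p = 9.49e-09), -1.91 ± 0.10 for ALDH1A3 (adjusted p = 4.43e-09) and -2.24 ± 0.13 for RDH10 (adjusted p = 1.16e-08). The named carrier, receptor and enzymes of the pathway thus did not move in 1 direction.

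Genes that flank the clusters are a local comparison for the HOX genes. Of 20 tested neighbours 5 were higher, 10 lower and 5 not called (median -0.34), or 75% called, against 80.2% of all genes tested. Near HOXB, SKAP1, a T-cell adaptor gene, was lower (log2 -2.18 ± 0.11, adjusted p = 4.15e-09), while SNX11 was higher (log2 0.81 ± 0.12, adjusted p = 4.99e-05) and CBX1 and CALCOCO2 were not called. Near HOXD, LNPK (-1.08 ± 0.14, adjusted p = 2.01e-05), HNRNPA3 (-0.94 ± 0.08, adjusted p = 5.6e-07) and MTX2 (-0.63 ± 0.15, adjusted p = 0.00175) were lower, with LNPK not called under the GC and length correction (log2 -0.21, adjusted p = 0.128) and HNRNPA3 then at -0.17. Near HOXA, SKAP2 (-1.18 ± 0.09, adjusted p = 8.61e-08), CBX3 (-1.17 ± 0.09, adjusted p = 1.69e-07) and TAX1BP1 (-0.86 ± 0.08, adjusted p = 5.01e-07) were lower, and near HOXC so were HNRNPA1 (-1.24 ± 0.07, adjusted p = 6.42e-09) and CBX5 (-1.08 ± 0.08, adjusted p = 7.63e-08; -0.21 with the GC and length correction). SNX10 near HOXA (0.27, adjusted p = 0.0229) and SMUG1 near HOXC (0.24, adjusted p = 0.0394) were higher. Both calls were lost when any siNC library was left out. HIBADH near HOXA, NFE2 near HOXC and ATP5MC3 near HOXD were not called. SNX10, SNX11, CBX1, CALCOCO2, SMUG1, HIBADH, NFE2 and the HOXD neighbours were chosen after their values were seen. So were EVX1, the even-skipped homeobox gene beside HOXA13, and TTLL6, a gene near HOXB13. EVX1 was higher (log2 3.43 ± 0.45, adjusted p = 1.8e-05, and 2.52 with the GC and length correction), as was TTLL6 (log2 3.28 ± 0.50, adjusted p = 6.26e-05). EVX1 thus stood opposite to HOXA13, and TTLL6 in the direction of HOXB13.

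**Figure D3:**
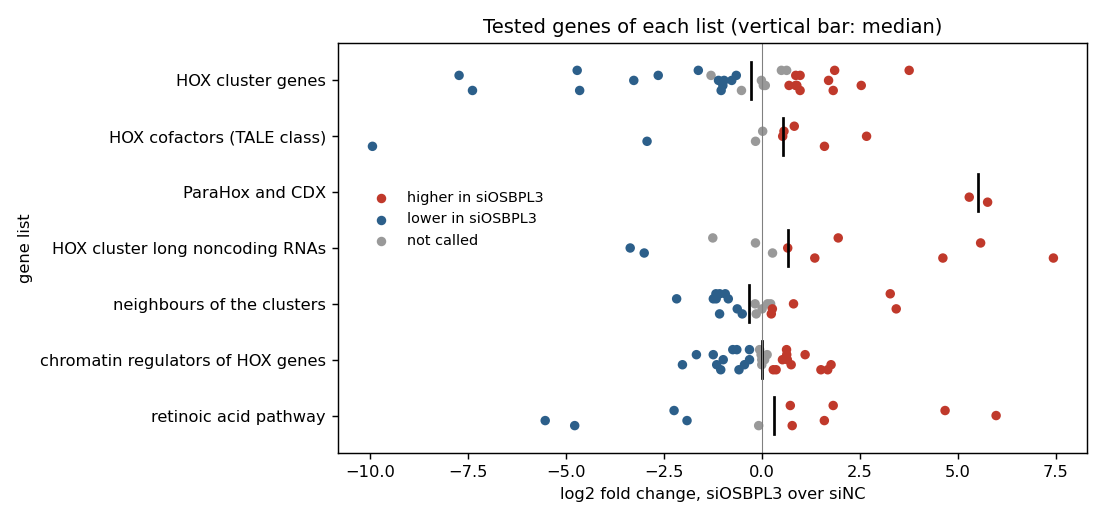
Log2 fold change of siOSBPL3 over siNC for tested genes of the HOX clusters and of the 6 pathway and neighbour lists, with 1 point a gene and a vertical bar at the median of all tested genes of the list. Red points are called higher in siOSBPL3, blue points lower and grey points were not called. Among the plotted lists, medians run from -0.34 for the cluster neighbours to 5.53 for the 2 tested ParaHox and CDX genes, and each plotted list but that one has calls in both directions; the point at the far left is MEIS1, with 0 counts in siOSBPL3, whose fitted value depends on the prior count. With MEIS1 set at its lower bound the median of the list of TALE genes was the same, 0.53.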

How the data were processed

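RNA-seq was made from 3 siOSBPL3 and 3 siNC libraries of SW620 cells, from Trizol total RNA with a VAHTS Universal V5 kit, per the labels' protocols. The authors deposited whole-number read counts per gene symbol, not normalized. Per the submitters' processing notes, the tools were HTSeq 0.13.5 and HISAT2 2.2.1, on build GRCh38 (hg38). The sources used here do not give the annotation, the strand setting or the counting options. Reads of genes that overlap, as 25 of the 38 HOX genes do in GENCODE 29, may therefore be split or shared.

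Counts were tested as deposited with edgeR 4.0.16 in R 4.3.3, using filterByExpr (minimum count 10, total 15), TMM scaling, a robust quasi-likelihood fit with group as its only term, 2-sided tests and Benjamini-Hochberg adjustment across the 15506 tested genes (threshold 0.05). Fold changes put siOSBPL3 over siNC. Levels per kilobase use GENCODE 29 exon lengths. Ratios of few counts carry exact 95% counting intervals. The test was checked on simulated data. Columns that matched no sample numbered 0.

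The alternatives were DESeq2 1.42.0, limma-voom (limma 3.58.1), other scalings and filters, a replicate block, each library left out, a threshold of 0.01 and a per-library smooth correction for GC content and length (mgcv 1.9.3, 89.1% of tested genes). The members and lists were chosen with earlier results of these data known. Named genes were OSBPL3, all HOX members, CDX1 and CDX2 and, from each other list, up to 6 called genes with the smallest adjusted p. Some genes that met these rules are not reported here. Where others are named they complete a small count or were chosen after their values were seen. Chi-square per degree of freedom between replicates was 19.5 to 52.1 in siOSBPL3 and 2.98 to 3.59 in siNC, so no library was counted as a duplicate.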

Additional observations from a re-analysis of the deposited data

How the results depend on the processing

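The 32 tested HOX genes were compared with the main result under 14 alternatives, which gave 448 values. Of these 418 kept direction and side of the threshold, 10 lost the call and 10 gained it with the sign kept, and 10 changed sign. The threshold of 0.01 kept the main fit, so its 32 values could not change sign or gain a call. There 30 stayed and 2 lost the call. Among the sign changes HOXD9 also lost its call and HOXA10 gained one, both with the GC and length correction. The counts of calls ranged from 8 to 13 higher and from 13 to 18 lower over all alternatives, where DESeq2 tested 37 HOX genes and the fit with no filter 38. The lowest count higher and the highest count lower came with the GC and length correction. With each library left out in turn, 10 to 12 were higher and 13 to 15 lower. The median log2 fold change of the tested HOX genes ran from -0.38 to -0.12 with 1 library left out and was -0.84 with the GC and length correction. Signs changed for HOXA10 (-0.064 without siOSBPL3 3 to 0.21 without siOSBPL3 1, -0.40 with the correction), HOXA11 (0.025 with library totals, and from -0.15 without siNC 2 to 0.16 without siOSBPL3 1), HOXC6 (-0.085 without siNC 1 to 0.11 without siNC 3, -0.32 with the correction) and HOXD9 (-0.34 with the correction). The cause of these changes was not tested. With the correction HOXB2 was at -1.74, HOXC9 at -1.35, HOXC12 at -3.92 and HOXC13 at -8.42.

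With the replicate number as a block, 12 HOX genes were higher and 15 lower, and 12277 genes were called in all. HOXA6 (-1.93, adjusted p = 0.0399) and HOXB4 (0.42, adjusted p = 0.0243) gained a call. The deviations of same-numbered libraries from their group means correlated at -0.020, -0.0042 and -0.019, and 0 of 6 libraries correlated best with their own number. No pairing was seen in these values, but with 3 libraries a group they cannot exclude a shared culture or batch. OSBPL3 was called under every alternative, at -3.68 to -2.37. For 6 HOX genes the counts were too few to test, and under 1 CPM the counts set the precision.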
